A study of Drosophila melanogaster with 7 samples.

Results

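The mitochondrial ribosomal protein genes are the nuclear genes whose FlyBase symbol starts with mRpL or mRpS, named for proteins of the large (L) and of the small (S) subunit of the mitochondrial ribosome. By this rule 66 of the 7608 genes measured were members, 42 named mRpL and 24 named mRpS. The annotation holds 73 such symbols, and the other 7 genes were not analysed here. The cells profiled by RNA-seq were Esg-GFP+ midgut cells, taken as the intestinal progenitors (stem cells and enteroblasts) and sorted at day 10 of adult life. The 3 Sox21a-/- libraries came from flies of the line Esg-GFP; Sox21a-/-, with both copies of the transcription factor gene Sox21a mutant by deletion, and the 4 wild type libraries came from the line Esg-GFP. All libraries thus shared the Esg-GFP fusion used for sorting, and each was made from cells of many pooled guts, so that p-values measure at most the spread between such pools. The text of the study does not name the allele of the sorted flies and gives 3 replicates, while 4 wild type libraries are labelled and were kept. Wild type replicates 3 and 4 were much more alike than the other libraries of a group. Their median squared log ratio was 2.12 times its counting error, against 9.39 to 21.3 times in the other pairs within a genotype. They differed beyond counting noise and were kept apart, but whether they came from separate pools is not given, and results with their values averaged are given too.

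The mitochondrial ribosome translates the few messages of the mitochondrial genome, which in animals encode core subunits of the respiratory complexes. Its ribosomal RNAs come from mitochondrial DNA, while all of its proteins are encoded in the nucleus, made in the cytosol and imported. Many of these proteins have a counterpart in the bacterial ribosome, and others are found only in mitochondria. The symbols follow the naming of the human proteins, of which the counterparts of mRpS18A and mRpS30 sit in the large subunit in spite of their names, so that groups by mRpL and mRpS symbol below are not strictly groups by subunit. In the fly, mRpL12 is known for its requirement in growth driven by Cyclin D and Cdk4, and tko and bonsai, which encode the small subunit proteins S12 and S15 under other names, are known from mutants with mitochondrial defects.

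Values are FPKM, fragments scaled to the exon length of the gene and to the mapped reads of the library, so that levels can be compared between genes per length. The number of reads behind each library was recovered approximately from the steps between its lowest values and lay between about 8235830 and 10283900. An exact 0 in this table can be a failed estimate. Over all genes, 25.7% of the values were 0, and 64.7% of the genes had 1 or more zeros. Sox21a itself had 96.3, 50.6 and 0 FPKM in Sox21a-/- cells, against 0, 0, 230 and 233 FPKM in wild type cells, so its level did not check the labels. The progenitor gene klu was lower in Sox21a-/- cells (log2 difference -1.66, Benjamini-Hochberg adjusted p = 0.00241 in limma). N, also listed as a progenitor gene, had 5.64, 6.69 and 12.1 FPKM in Sox21a-/- cells, against 0, 7.67, 12.5 and 9.13 FPKM in wild type cells. With the 0 left out, it did not pass the test (-0.27, adjusted p = 0.574, limma, Benjamini-Hochberg). The defining progenitor genes esg and Dl were not analysed here. Of 12 enterocyte markers, 8 could be tested with values of 0 left out, and 2 passed the test. All 8 differences were positive (median 1.74 on the log2 scale). The 12 summed to 1674 to 7795 FPKM in Sox21a-/- cells and to 690 to 2921 FPKM in wild type cells. Myo31DF, Amy-d and Amy-p, not among the 8, were listed at 0 in all Sox21a-/- libraries, with up to 241, 101 and 216 FPKM in wild type cells. Zeros made up 41.7% of the values of the 12 in Sox21a-/- cells and 16.7% in wild type cells. The hemocyte markers Col4a1 and NimC1 reached 33.1 and 15.0 FPKM in Sox21a-/- replicate 2, and were at most 5.40 and 2.01 FPKM in the other libraries. The 5 hemocyte markers summed to 144 to 201 FPKM in Sox21a-/- cells and to 2.63 to 133 FPKM in wild type cells. Where crq was above 0, it made up most of these sums. It had 138, 123 and 141 FPKM in Sox21a-/- cells, against 0, 130, 111 and 112 FPKM in wild type cells. With the 0 left out, its log2 difference was 0.19 (adjusted p = 0.514, limma, Benjamini-Hochberg). The 5 enteroendocrine markers measured summed to 99.5 to 8660 FPKM in Sox21a-/- cells and 4010 to 9308 FPKM in wild type cells. NPF, the largest of them, was listed at 0 in Sox21a-/- replicate 3. Of 4 tested with zeros left out, all were positive and CCHa2 passed the test (2.55, adjusted p = 0.0018, limma, Benjamini-Hochberg). Fat body and ovary markers summed to 46.2 to 212 FPKM in Sox21a-/- cells and 36.6 to 161 FPKM in wild type cells. RNA of genes listed as markers of other cell types thus moved with genotype or with a library. Which cells this RNA came from, and its part in the values below, were not tested. Fewer cells of a type and less RNA per cell cannot be told apart in these bulk libraries.

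The members were spread over the chromosome arms, with 11 genes on 2L, 10 on 2R, 14 on 3L, 21 on 3R and 10 on X. They were short genes. Their exons summed to a median of 783 bases (349 to 2078 bases), against 1639 bases for all genes. A single transcript was annotated for 50 of the 66. Exons of 38 members overlapped an exon of another gene on the opposite strand, and 28 overlapped none. The library kit does not mark strand, so reads of the 38 genes and of their partners cannot be told apart where they overlap. Among members above 0 in all 7 libraries, the median log2 difference between genotypes was 0.05 for the 20 with such an overlap and 0.04 for the 19 without.

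Of the 66 members, 39 were above 0 in all 7 libraries, 25 of them mRpL and 14 mRpS. Their mean levels lay close together, between 10.5 and 85.2 FPKM, and 31 of the 39 had a mean between 10 and 30 FPKM, against 28.6% of all genes above 0 throughout. The quartiles of the mean level were 15.4 and 25.1 FPKM (a 1.63-fold span), against 4.58 and 34.0 FPKM for all such genes (a 7.42-fold span). Genes with an mRpL symbol had a median mean level of 18.0 FPKM and those with an mRpS symbol one of 19.9 FPKM. Members with a bacterial counterpart had a median of 17.5 FPKM (n = 26 genes) and those found only in mitochondria one of 21.1 FPKM (n = 13 genes). Each of these values rested on about 33 to 529 reads, with a median of 155.

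**Figure D1:**
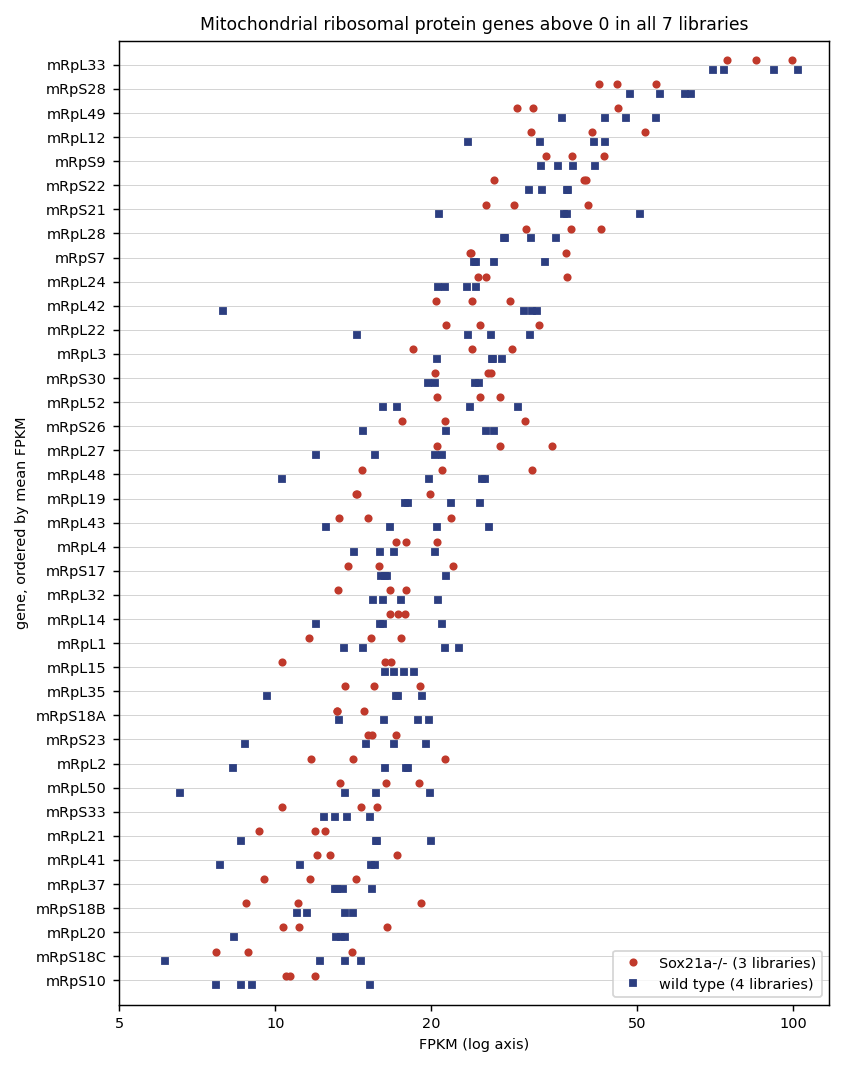
FPKM (log axis) of the 39 mitochondrial ribosomal protein genes above 0 in all 7 libraries, ordered by mean level, with each library as a point, Sox21a-/- libraries (circles) drawn above wild type libraries (squares). Most genes lie between 10 and 30 FPKM, mRpL33 stands alone at the top with 70.1 to 102 FPKM, and the points of both genotypes are intermingled in nearly every gene.

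The most abundant member was mRpL33 (FBgn0040907), the counterpart of a small bacterial large subunit protein. It had 99.6, 84.9 and 74.7 FPKM in Sox21a-/- cells, against 102, 70.1, 73.4 and 91.7 FPKM in wild type cells. The groups overlapped over their whole span, and the log2 difference was 0.04 ± 0.19 (SE, adjusted p = 0.899, limma, Benjamini-Hochberg). The lowest value of mRpL33 exceeded the highest of mRpS28, the next in order, whereas in the other 37 of the 38 neighbouring pairs the values of the 2 genes overlapped. 

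mRpS28, related to bacterial S1, had 54.5, 45.7 and 42.1 FPKM in Sox21a-/- cells, against 55.3, 48.5, 63.5 and 61.9 FPKM in wild type cells. Its 2 lowest values were Sox21a-/- and the groups overlapped. mRpL49, a protein with no bacterial counterpart, had 45.9, 29.3 and 31.5 FPKM in Sox21a-/- cells, against 43.3, 35.7, 47.7 and 54.4 FPKM in wild type cells. Sox21a-/- replicate 1 lay among the wild type values, and the other Sox21a-/- libraries below them. mRpL12, the counterpart of the bacterial stalk protein that recruits translation factors, had 51.9, 31.1 and 40.9 FPKM in Sox21a-/- cells, against 32.4, 23.5, 41.2 and 43.3 FPKM in wild type cells. Its lowest value was that of wild type replicate 2 and its highest that of Sox21a-/- replicate 1. mRpS9, whose bacterial counterpart reaches the tRNA in the peptidyl site, had 43.2, 33.3 and 37.3 FPKM in Sox21a-/- cells, against 35.2, 32.6, 37.6 and 41.5 FPKM in wild type cells. The wild type values of mRpS9 all lay within the span of the Sox21a-/- values but for that of replicate 2. None of the log2 differences of these genes passed the test (-0.27 ± 0.16 for mRpS28, -0.35 ± 0.21 for mRpL49, 0.24 ± 0.25 for mRpL12 and 0.04 ± 0.15 for mRpS9, SE).

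Summed over the 39 genes, the members reached 910 ± 146 FPKM in Sox21a-/- cells (SD, n = 3) and 908 ± 143 FPKM in wild type cells (SD, n = 4). By library the sums were 1077, 801 and 853 FPKM in Sox21a-/- cells, against 983, 699, 936 and 1013 FPKM in wild type cells. The highest sum was that of Sox21a-/- replicate 1 and the lowest that of wild type replicate 2, so the spread within either genotype exceeded the difference between them. The sum over the 25 mRpL symbols was 1.92, 1.74 and 1.80 times that over the 14 mRpS symbols in Sox21a-/- cells, against 1.66, 1.61, 1.76 and 1.85 times in wild type cells. These ratios overlapped between the genotypes (1.82 ± 0.092 in Sox21a-/- cells, n = 3, and 1.72 ± 0.11 in wild type cells, n = 4, SD).

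The comparison of Sox21a-/- with wild type cells asked how loss of Sox21a changed the transcriptome of the progenitors. Differences are those of log2(FPKM + 1), and a gene was called at a Benjamini-Hochberg adjusted p of at most 0.05 in limma. With values of 0 treated as missing, 58 members could be tested and 0 were called. Of the 5022 genes tested in this way, 6.87% were called higher and 5.28% lower in Sox21a-/- cells. Among the 39 members above 0 in all 7 libraries 0 were called too, where the background of 2460 genes had 9.23% called higher and 7.97% lower. This background depended on single libraries. Its 423 calls in all became 234, 276 or 333 without Sox21a-/- replicate 1, 2 or 3. They became 439, 355, 269 or 250 without wild type replicate 1, 2, 3 or 4, and 261 with wild type replicates 3 and 4 averaged. In each case 0 members were called. Before adjustment 1 member, mRpL27, had P of at most 0.05 in either comparison, against 29.3% of all genes with values above 0 and 32.8% of the genes above 0 throughout.

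By the criteria of the study, P of at most 0.05 and a fold of at least 2, 0 members were counted. The background was 8.02% higher and 2.97% lower among genes with values above 0, and 9.15% higher and 2.93% lower among genes above 0 throughout. A gap between the genotypes, with every Sox21a-/- value above every wild type value, was found in 1 of the 39 members, mRpL24, against 16.1% of the background. The opposite gap was found in 0 members, against 17.9% of the background.

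The differences of the members were small. Their median was 0.05 over the 58 members (35 positive and 23 negative), where that of all genes was -0.04. It was 0.04 over the 39 members above 0 throughout (23 positive and 16 negative), where that of all such genes was -0.01. The 25 genes with an mRpL symbol had a median of 0.07 (16 positive) and the 14 with an mRpS symbol one of -0.00 (7 positive). The median size of the difference, regardless of sign, was 0.15 in the 39 members, against 0.34 in all genes above 0 throughout. Its median standard error was similar, at 0.22 in the members and 0.21 in all such genes. 

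The 95% intervals of limma take the libraries as independent, and do not cover shifts shared by genes of similar length. In 36 of the 39 members (92.3%) the whole interval lay within 1 log2 unit of 0, a 2-fold change in either direction, as it did in 62.8% of all genes above 0 throughout. The exceptions were mRpL27, mRpL42 and mRpL50. Over the 58 members it was 55 (94.8%), against 60.1% of all genes. A difference of 2-fold or more was estimated for 0 members, against 13.1% of the genes above 0 throughout.

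**Figure D2:**
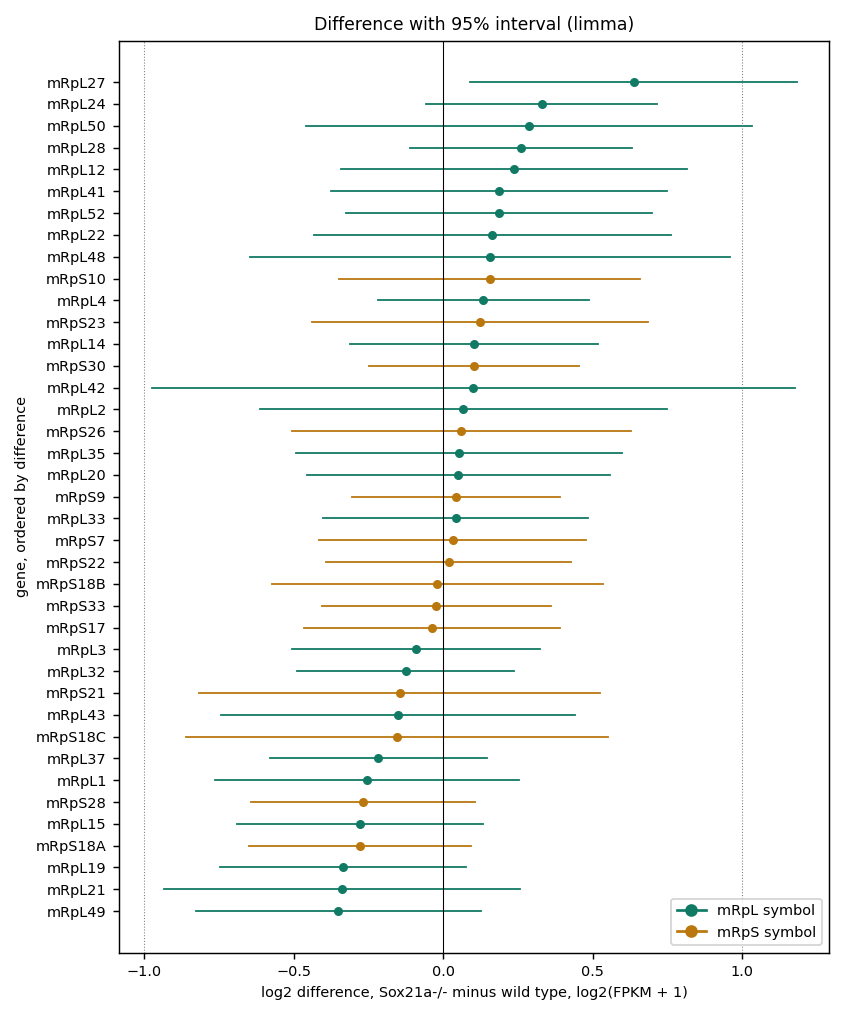
Log2 difference of log2(FPKM + 1), Sox21a-/- minus wild type, for the 39 members above 0 in all 7 libraries, with 95% intervals from limma, mRpL symbols in green and mRpS symbols in brown. The points run from -0.35 (mRpL49) to 0.64 (mRpL27), and 3 intervals pass the dotted lines that mark a 2-fold change.

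The highest difference among the members was that of mRpL27 (FBgn0053002), whose bacterial counterpart reaches the peptidyl transferase centre. It had 34.3, 20.5 and 27.1 FPKM in Sox21a-/- cells, against 15.5, 12.0, 20.3 and 21.0 FPKM in wild type cells. The lowest Sox21a-/- value lay between the 2 highest wild type values, and the rest did not overlap. The log2 difference was 0.64 ± 0.24 (SE, 95% interval 0.09 to 1.19), with an adjusted p of 0.105 (limma, Benjamini-Hochberg). An exact two-sided permutation test, which can give no p below 0.0571 with these libraries, gave p = 0.114. With the depth level of the libraries, higher or lower, as a covariate, mRpL27 was the 1 member called (adjusted p = 0.0406, limma, Benjamini-Hochberg, log2 difference 0.54). In this fit 1 of the 39 members and 267 of all 2460 genes above 0 throughout were called higher.

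mRpL24 (FBgn0031651), whose bacterial counterpart starts the assembly of the large subunit, had 36.5, 24.6 and 25.5 FPKM in Sox21a-/- cells, against 21.3, 23.4, 20.7 and 24.5 FPKM in wild type cells. The groups did not overlap, but by a margin of 24.6 over 24.5 FPKM. The log2 difference was 0.33 ± 0.17 (SE, adjusted p = 0.216, limma, Benjamini-Hochberg). The exact permutation test gave p = 0.0571, the lowest that it can give with these libraries. An exon of mRpL24 overlaps one of another gene on the opposite strand. mRpL28, the counterpart of bacterial L28, had 42.6, 37.2 and 30.4 FPKM in Sox21a-/- cells, against 27.6, 27.8, 31.1 and 34.8 FPKM in wild type cells. The 2 highest values were Sox21a-/- and the third lay among the wild type values (log2 difference 0.26 ± 0.16, SE). mRpL50, found only in mitochondria, had 19.0, 13.3 and 16.4 FPKM in Sox21a-/- cells, against 19.9, 6.54, 15.7 and 13.6 FPKM in wild type cells. Its positive difference of 0.29 turned to -0.01 without wild type replicate 2, which had the lowest value. The same library had 7.94 FPKM of mRpL42, a protein also found only in mitochondria, while the Sox21a-/- libraries had 20.4 to 28.4 FPKM and the other wild type libraries 30.2 to 32.1 FPKM. The difference of mRpL42 was 0.10 ± 0.46 (SE), and -0.36 without wild type replicate 2.

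At the other end, the lowest difference among the 39 members above 0 throughout was that of mRpL49, given above (-0.35, adjusted p = 0.282, limma, Benjamini-Hochberg). mRpL21, the counterpart of bacterial L21, had 11.9, 9.31 and 12.5 FPKM in Sox21a-/- cells, against 15.7, 8.57, 15.7 and 20.0 FPKM in wild type cells. All Sox21a-/- values lay below those of 3 wild type libraries and above that of wild type replicate 2 (log2 difference -0.34 ± 0.26, SE). mRpL19, whose bacterial counterpart lies where the subunits meet, had 19.9, 14.4 and 14.3 FPKM in Sox21a-/- cells, against 24.9, 17.8, 18.0 and 21.9 FPKM in wild type cells. Sox21a-/- replicate 1 lay among the wild type values and the other Sox21a-/- libraries below them (-0.34 ± 0.18, SE). mRpS18A, a relative of bacterial S18, had 14.8, 13.2 and 13.2 FPKM in Sox21a-/- cells, against 19.8, 13.2, 16.2 and 18.9 FPKM in wild type cells. Only wild type replicate 2 overlapped with the Sox21a-/- libraries (-0.28 ± 0.16, SE). mRpL15, the counterpart of bacterial L15, had 16.7, 10.3 and 16.3 FPKM in Sox21a-/- cells, against 16.3, 17.7, 18.6 and 17.0 FPKM in wild type cells, with the lowest value in Sox21a-/- replicate 2 and the others overlapping. Its difference of -0.28 ± 0.18 (SE) was -0.07 without that library. None of these 5 genes passed the test.

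The levels of the members varied by library, high or low in many members at once. The deviation of each gene from its mean over the libraries, on the log2 scale, had a median over the 39 members of 0.24, -0.18 and -0.05 in Sox21a-/- cells, against 0.14, -0.28, 0.09 and 0.16 in wild type cells. Wild type replicate 2 held the lowest of the 7 values in 23 of the 39 members (59.0%), against 21.0% of all genes above 0 throughout. Sox21a-/- replicate 1 held the highest in 19 members (48.7%), against 21.7% of all such genes. Replicate 2 was thus low in either genotype, whereas the medians of all genes stayed between -0.07 and 0.10. The sign of the members' median difference turned on single libraries. Leaving out Sox21a-/- replicate 1 gave -0.11, leaving out Sox21a-/- replicate 2 gave 0.13 and leaving out wild type replicate 2 gave -0.10, with 0 members called in each case. Without both libraries numbered 2, chosen after seeing these values, it was -0.00.

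**Figure D3:**
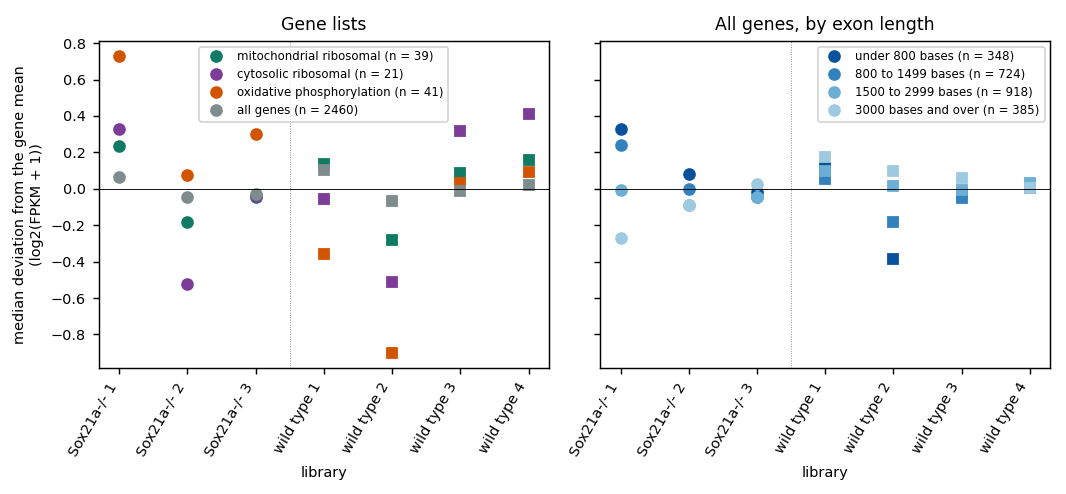
Median deviation from the gene mean on the log2(FPKM + 1) scale in each library, Sox21a-/- libraries left of wild type libraries, for the gene lists (left) and for all genes by summed exon length (right), over genes above 0 in all 7 libraries. The members are high in Sox21a-/- replicate 1 (0.24) and low in wild type replicate 2 (-0.28), and genes under 800 bases are high and low in the same libraries (0.33 and -0.38).

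The same libraries stood apart by gene length. Over all genes above 0 throughout, the 348 genes with exons of less than 800 bases in all had a median deviation of 0.33 in Sox21a-/- replicate 1 and of -0.38 in wild type replicate 2, while the 385 genes of 3000 bases or more had medians of -0.27 and 0.10 in these libraries. The median difference between genotypes was 0.19 for genes under 800 bases, of which 21 are members with a median of 0.05. It was 0.10 for genes of 800 to 1500 bases, of which 16 are members with a median of 0.04. For genes of 1500 to 3000 bases it was -0.08, with 2 members among them at a median of -0.12. For genes of 3000 bases or more it was -0.19.

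With a smooth trend on exon length removed from each library, an alternative added after seeing the data, the members' median difference became -0.13 (9 positive and 30 negative), while that of all genes was -0.00. Then 4 of the 39 members (10.3%) were called lower, against 8.51% of the 2375 genes with an exon length, and 0 were called higher, against 9.81%. The 4 were mRpS18A (-0.51, adjusted p = 0.0106), mRpL19 (-0.44, adjusted p = 0.0290), mRpS28 (-0.48, adjusted p = 0.0371) and mRpL49 (-0.53, adjusted p = 0.0392), with Benjamini-Hochberg adjustment in limma. The share lower was near that of all genes. Among the mutant libraries, leaving out replicate 1 gave 0 calls, and leaving out replicate 2 or 3 gave 1. Among the wild type libraries, leaving out replicate 4 gave 1 call, replicate 2 or 3 gave 2, and replicate 1 gave 4. Over these fits without 1 library, 99 to 203 of the 2375 genes were called lower. Leaving out both libraries numbered 2 gave 0 calls (lowest adjusted p of a member 0.0527, limma, Benjamini-Hochberg).

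The depth of the libraries did not separate the genotypes. At the higher depth (Sox21a-/- replicate 2 against wild type replicates 1 and 2) the median difference of the 39 members was -0.03, with 18 positive, and that of all such genes was -0.06. At the lower depth (Sox21a-/- replicates 1 and 3 against wild type replicates 3 and 4) it was 0.01, with 21 positive, and that of all such genes was 0.02.

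The other 27 members (40.9%) had 1 or more zeros, against 64.7% of all genes. Zeros made up 12.8% of the values of the members (59 of 462), 15.7% in Sox21a-/- cells and 10.6% in wild type cells, where those of all genes made up 24.9% and 26.3%. By library, 7, 11 and 13 members were at 0 in Sox21a-/- cells, against 5, 10, 7 and 6 in wild type cells. Of the 27, 15 had a single 0. The lowest value above 0 of these 27 genes in any library was 7.90 FPKM, with at least about 52 reads behind each such value, and the cause of the zeros was not tested.

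**Figure D4:**
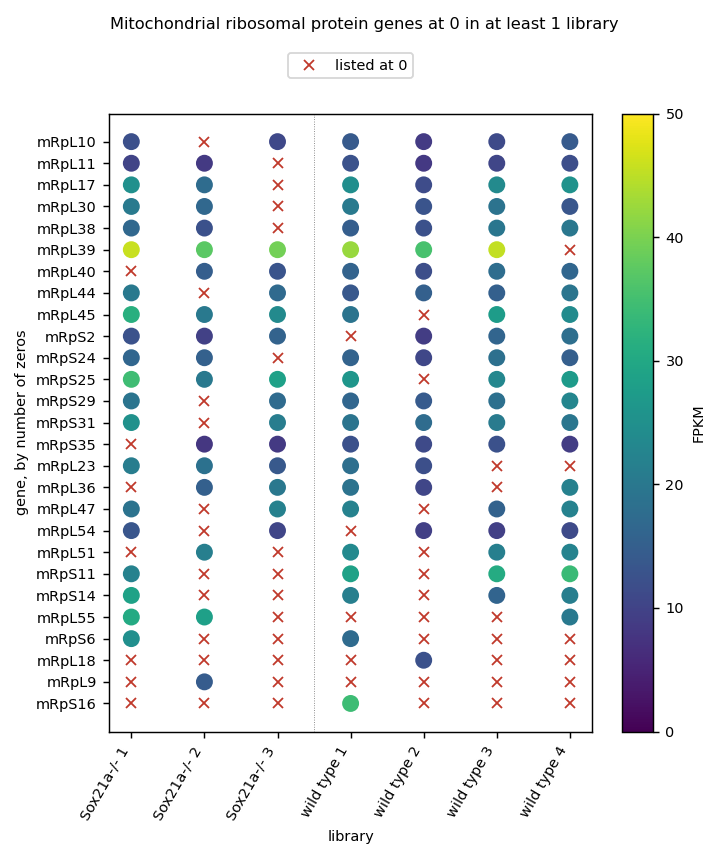
The 27 members listed at 0 in at least 1 library, by number of zeros, in the 3 Sox21a-/- libraries (left) and the 4 wild type libraries (right), with values above 0 coloured by FPKM and zeros as red crosses. Zeros are scattered over both genotypes, and 3 genes at the bottom (mRpL18, mRpL9 and mRpS16) are above 0 in 1 library each.

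mRpL39, a large subunit protein found only in mitochondria, shows the pattern. It had 45.7, 37.2 and 39.4 FPKM in Sox21a-/- cells, against 42.3, 35.5, 45.3 and 0 FPKM in wild type cells, so that its single 0 stood beside 6 values within 35.5 to 45.7 FPKM. In the 24 such members with at least 2 values above 0, the highest of these was a median of 1.57 times the lowest, and at most 2.22 times. The lowest difference among all tested members was that of mRpS35, a small subunit protein found only in mitochondria. It was listed at 0 in Sox21a-/- replicate 1 and had 7.90 and 8.40 FPKM in the other Sox21a-/- libraries, against 12.4, 11.2, 12.4 and 8.92 FPKM in wild type cells. Its values above 0 did not overlap (log2 difference -0.41 with the 0 left out, adjusted p = 0.182, limma, Benjamini-Hochberg).

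Of the 8 members with too few values for a test, 3 were listed at 0 throughout 1 genotype. mRpL9 had 14.3 FPKM in Sox21a-/- replicate 2 and was listed at 0 in the other Sox21a-/- libraries and in all wild type libraries. mRpL18, whose bacterial counterpart binds 5S rRNA, was listed at 0 in all Sox21a-/- libraries and had 12.4 FPKM in wild type replicate 2 alone. mRpS16, the counterpart of a bacterial assembly protein, was listed at 0 in all Sox21a-/- libraries too and had 34.2 FPKM in wild type replicate 1 alone. Each of these genes was thus at 0 also in most libraries of the genotype with a value, and no fold was computed. mRpL55, mRpS6, mRpL51, mRpS11 and mRpS14, at 0 in 3 to 5 libraries, were above 0 in both genotypes.

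The small subunit proteins under other names were at levels within the range of the members. tko, which encodes the S12 protein of the decoding centre, had 15.3, 14.6 and 16.3 FPKM in Sox21a-/- cells, against 20.4, 12.6, 20.5 and 24.6 FPKM in wild type cells. The Sox21a-/- values lay between the lowest and the next wild type value (log2 difference -0.29 ± 0.21, SE). bonsai, which encodes S15, had 27.9, 17.7 and 21.6 FPKM in Sox21a-/- cells, against 18.7, 16.1, 20.7 and 19.0 FPKM in wild type cells, and the groups overlapped (0.24 ± 0.18, SE). Neither passed the test.

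Lists of related genes gave the following, each beside the same fit. Of 38 mitochondrial translation factors, tRNA synthetases and related genes, 24 were measured and 21 tested with values of 0 left out, and their median difference was -0.19 (4 positive and 17 negative). In this list 1 of the 21 genes was called lower and 0 higher, against 5.28% and 6.87% of all genes tested. It was mTerf5, a member of the mitochondrial transcription termination factor family and thus no translation factor by name. It had 5.995, 5.13 and 5.67 FPKM in Sox21a-/- cells, against 10.4, 11.7, 9.61 and 0 FPKM in wild type cells. Apart from the 0, which was left out, every Sox21a-/- value lay below every wild type value (-0.81 ± 0.15, SE, adjusted p = 0.0148, limma, Benjamini-Hochberg). The call was lost without both libraries numbered 2 (adjusted p = 0.0930, limma, Benjamini-Hochberg). mEFTs and mEFTu1, elongation factors of mitochondria, had differences of -0.37 and 0.22 and did not pass the test.

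Of the 16 genes for maintenance and transcription of the mitochondrial genome, 9 were measured and 8 tested, with a median of -0.23 (1 positive and 7 negative). Of these 8, 1 gene was called lower, against 5.28% of all genes tested. This was mtDNA-helicase, the replicative helicase of mitochondrial DNA, with 3.54, 3.44 and 2.77 FPKM in Sox21a-/- cells, against 0, 6.92, 0 and 9.34 FPKM in wild type cells. The call rested on the 2 wild type values above 0 (-1.09 ± 0.22, SE, adjusted p = 0.0233, limma, Benjamini-Hochberg), and was lost without any of the Sox21a-/- libraries (adjusted p up to 0.0627, limma, Benjamini-Hochberg). Without wild type replicate 2 or 4 too few values were left for a test. TFAM, which packages mitochondrial DNA, had 38.7, 24.5 and 33.3 FPKM in Sox21a-/- cells, against 33.4, 28.0, 48.0 and 43.7 FPKM in wild type cells, with overlapping groups. Of the 9 nuclear regulators listed, 4 were measured and only Ets97D, the fly relative of the mammalian GABP alpha subunit, had enough values (-0.66, adjusted p = 0.137, limma, Benjamini-Hochberg). Cdk4 and CycD, named above for growth with mRpL12, were each listed at 0 in 4 libraries.

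Against these, the subunits of oxidative phosphorylation had a median difference of 0.61 over 51 tested genes, all of them positive, with 0 called. Of all genes in that fit, 6.87% were called higher and 5.28% lower. Among the 41 above 0 throughout the median was 0.62, and 1 gene, ND-42 of complex I, was called higher (0.62, adjusted p = 0.0481, limma, Benjamini-Hochberg). That is 2.44% of the 41, against 9.23% of all genes above 0 throughout. This call was lost without any single library other than Sox21a-/- replicate 2 (adjusted p of 0.0819 or more, limma, Benjamini-Hochberg). The cytosolic ribosomal protein genes had a median of -0.12 over 43 tested genes (9 positive and 34 negative) and one of -0.11 over the 21 above 0 throughout, with 0 called. The members, at 0.05 and 0.04, lay between these lists, and the difference between lists was not tested. The oxidative phosphorylation genes were also high in Sox21a-/- replicate 1 and low in wild type replicate 2 (median deviations of 0.73 and -0.90), over a wider range than the members. Within the depth levels their median differences were 0.65 and 0.46, while those of the members were -0.03 and 0.01. With the exon length trend removed, all 41 stayed positive with a median of 0.51. The members then had a median of -0.13 and the 21 cytosolic ribosomal protein genes one of -0.20. In 18 of the 41 (43.9%) every Sox21a-/- value lay above every wild type value, against 16.1% of all genes above 0 throughout.

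**Figure D5:**
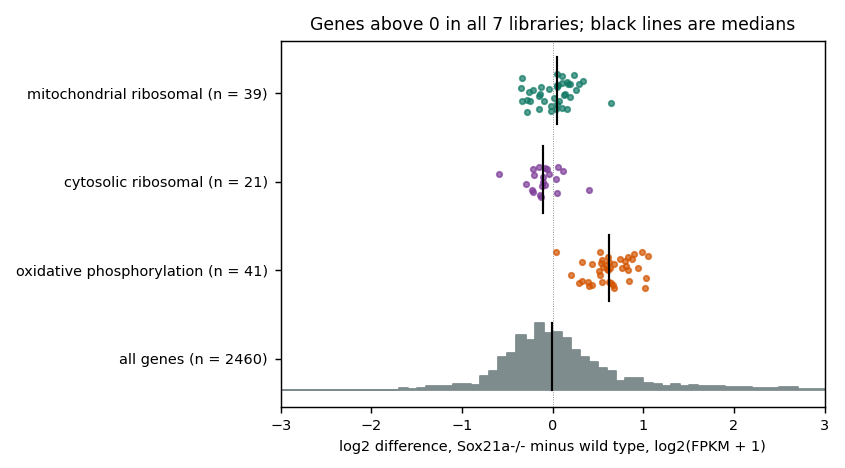
Log2 difference of log2(FPKM + 1), Sox21a-/- minus wild type, for genes above 0 in all 7 libraries, with each gene of the 3 lists as a point (spread vertically for visibility), all genes as a histogram scaled to its own height and shown from -3 to 3, and medians as black lines. The 39 members centre on 0.04, the 41 oxidative phosphorylation genes lie to the right of 0 around 0.62, and the 21 cytosolic ribosomal protein genes centre on -0.11.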

How the data were processed

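Single-end reads had been aligned by the authors to the fly genome, Release 5, using TopHat2 2.0.10 and the BDGP5 annotation, and the deposited FPKM were computed with Cufflinks 2.2.1 (versions from the submitters' processing notes). The filter on genes, and any scaling between libraries beyond FPKM, are not given in the sources used here. All 7 columns of FPKM belonged to labelled libraries.

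Symbols, exon lengths and overlaps were taken by FlyBase ID from the BDGP6 annotation of Ensembl release 115 (7339 of 7608 IDs matched), so exon lengths may differ from those behind the FPKM. Approximate reads rest on FPKM times kilobases below 0.15 in 5 to 39 genes per library, and cover counting error only.

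log2(FPKM + 1) was tested with limma 3.58.1 in R 4.3.3 (lmFit, eBayes with trend and robust settings, two-sided, no covariate, Benjamini-Hochberg over all genes tested). Fold changes on this scale understate those of low genes. Either zeros were missing values (at least 2 values above 0 in each group) or only genes above 0 in all 7 libraries were kept, both for mean levels of 1 FPKM or more. This step was tested on simulated data with independent noise in each value. Such data hold no shift shared within a library, no trend on gene length and no pair of libraries that are much alike, so they cannot test for these. Other steps ran in Python 3.11.15 with scipy 1.17.1, pandas 2.3.3, matplotlib 3.10.9 and numpy 2.4.6.

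The members and the gene lists were chosen with earlier results of these data known. Cytosolic ribosomal and oxidative phosphorylation genes were taken by symbol, and bacterial counterparts by the naming of human proteins. Named are members called, the 5 highest and the 5 lowest differences and the 5 most abundant members among those above 0 throughout, members at 0 throughout a group, tko and bonsai, and called genes of related lists. mRpL42, mRpL39, mRpS35, TFAM, mEFTs, mEFTu1, Ets97D, Cdk4, CycD, ND-42 and the other members at 0 in 3 or more libraries were named after their values were seen. Alternatives were zeros kept as values, a minimum mean of 5 FPKM or none, pseudocounts of 0.1 and 0.01, quantile normalization, median-ratio scaling, limma without trend and robust settings, depth level as a covariate, wild type replicates 3 and 4 averaged (they were the most alike), the replicate number as a block and each library left out. Removal of the exon length trend and leaving out both libraries numbered 2 were added after seeing the data.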

Additional observations from a re-analysis of the deposited data

Results flagged for a closer look

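In wild type replicate 2 the members had a median deviation of -0.28 on the log2 scale, against 0.09 to 0.16 in the other wild type libraries, and mRpL42 had 7.94 FPKM, against 30.2 to 32.1 FPKM. Both gaps were past the critical value of Dixon's test for 4 samples. Of 25 values examined in this way these 2 were past it, where chance gives about 1.25. Genes under 800 bases had a median deviation of -0.38 in the same library. The part of gene length in these low values was not tested.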

How the results depend on the processing

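The number of members called, higher or lower, was 0 among genes with values above 0 and among genes above 0 throughout under both other pseudocounts, other filters and median-ratio scaling, without trend and robust settings, with zeros kept (first comparison only), with wild type replicates 3 and 4 averaged, and without any single library. It was 1 higher (mRpL27) in both comparisons with depth level as a covariate. There 394 of 5012 and 267 of 2460 genes in all were called higher. With quantile normalization it was 1 lower among genes above 0 throughout (mRpS28, adjusted p = 0.0255, limma, Benjamini-Hochberg). In that fit 312 of all 2460 genes were called lower. With the exon length trend removed it was 5 and 4 lower, 0 to 3 and 0 to 4 with a library left out as well, and 0 in both without both libraries numbered 2. Of all genes, 295 of 4851 and 202 of 2375 were called lower with the trend removed. With a library left out as well, 128 to 316 and 99 to 203 genes in all were called lower. A trend fitted by least squares, which also moved the median of all genes to -0.15 and -0.14, gave 5 lower in both and members' medians of -0.28 and -0.28. Over the settings without 1 library, with or without the length trend, the members' median lay between -0.18 and 0.13 with values above 0 and between -0.19 and 0.13 above 0 throughout. Of all 5022 genes with values above 0, 610 were called, against 306, 406 or 439 without Sox21a-/- replicate 1, 2 or 3. Without wild type replicate 1, 2, 3 or 4 the calls were 655, 527, 368 or 378. They were 398 with wild type replicates 3 and 4 averaged, and 160 of 6565 with zeros kept as values. The cause of these changes was not tested.

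The libraries share only a number (correlations of same-numbered deviations of 0.005, 0.372 and 0.202). With the replicate block, where wild type replicate 4 has no partner, 0 members were called in either comparison and their median was 0.10 in both, and 408 and 286 genes in all were called instead of 610 and 423.

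Differences of named genes changed sign as follows. Without the exon length trend that of mRpL33 was -0.16 and that of mRpL42 -0.13, and by least squares mRpL12 had -0.12, mRpL50 -0.072, mRpL33 -0.20, mRpS9 -0.15, bonsai -0.058 and mRpL42 -0.30. With quantile normalization mRpL33 had -0.25 and mRpS9 -0.10. Without both libraries numbered 2 mRpL33 had -0.033 and mRpL42 -0.36, and with the trend removed too mRpL50 had -0.016, mRpL33 -0.12 and mRpL42 -0.50. Over the settings without 1 library mRpL12 ranged from -0.045 to 0.42, mRpL50 from -0.11 to 0.48, mRpL33 from -0.23 to 0.14, mRpS9 from -0.052 to 0.13 and mRpL42 from -0.48 to 0.27. With zeros kept as values mTerf5 had 0.075 and mtDNA-helicase 0.49, both called lower with zeros left out, and Ets97D had 1.22.

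With 3 and 4 libraries the median SE of a member's difference was 0.22 on the log2 scale. The 8 members with few values above 0 were not tested.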
